A study of Mus musculus with 4 samples.

Results

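AP-1 is a family of dimeric transcription factors that share a basic leucine zipper (bZIP), and its members were followed here across 4 RNA-seq libraries of mouse peritoneal macrophages together with the related BATF and MAF factors. The 9 genes examined, Batf, Batf3, Jun, Junb, Jund, Fos, Fosl2, Atf3 and Maf, were taken from the deposited gene tables by their NCBI gene IDs. All 9 of 9 were found among 16403 gene IDs listed in the tables, and each had reads in every library.

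The macrophages came from C57BL/6 mice, 4 days after an intraperitoneal injection of 4% thioglycolate, and were left to adhere for 4 h and starved in medium holding 0.5% FBS. Wild-type cells were either untreated or given mouse IL-4 at 20 ng/mL for 6 h, and cells labelled TIF1a-KO were treated in the same way. TIF1a is another name of Trim24, and the TIF1a-KO mice are called Trim24-deficient below: their floxed Trim24 gene was removed in the myeloid lineage by LysM-Cre, so cells of other lineages keep it. The 4 groups have 1 library apiece, without replicates, and how many mice went into a library is not given in the sources used here. The tests below therefore compare libraries and not conditions, and the errors of the pairwise tests cover counting of reads only.

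A bZIP protein binds DNA as a pair. JUN proteins pair with each other or with FOS and ATF proteins, whereas BATF proteins lack an activation domain, pair mostly with JUN proteins and bind next to IRF4 or IRF8. The large MAF proteins form a separate bZIP branch, and MAF is abundant in mature macrophages and restrains their self-renewal. IL-4 acts on macrophages through the transcription factor STAT6 and drives the alternatively activated, or M2, state.

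The promoters of 4 members are printed first, because they contrast the neighbouring genes Batf3 and Atf3, which rose with IL-4, with Jun and Fos, which were not called. Each sequence runs from 250 bases before to 50 bases after the gene start, on the coding strand, and comes from RefSeq on GRCm38.p6. Capitals mark a palindrome of the STAT type with a spacer of 3 (TTCNNNGAA) in Batf3, the cyclic AMP response element with 2 free bases (TNACNTCA) in Atf3 and Jun, and its short core (TGACG) in Fos.
Batf3, chr1:191098164-191098463, plus strand: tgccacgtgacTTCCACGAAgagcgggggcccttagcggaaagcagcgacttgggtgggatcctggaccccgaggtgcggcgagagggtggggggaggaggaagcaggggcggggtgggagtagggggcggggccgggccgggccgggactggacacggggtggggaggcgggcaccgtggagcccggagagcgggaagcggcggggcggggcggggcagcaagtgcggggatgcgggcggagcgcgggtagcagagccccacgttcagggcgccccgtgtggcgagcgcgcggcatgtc
Atf3, chr1:191183284-191183583, minus strand: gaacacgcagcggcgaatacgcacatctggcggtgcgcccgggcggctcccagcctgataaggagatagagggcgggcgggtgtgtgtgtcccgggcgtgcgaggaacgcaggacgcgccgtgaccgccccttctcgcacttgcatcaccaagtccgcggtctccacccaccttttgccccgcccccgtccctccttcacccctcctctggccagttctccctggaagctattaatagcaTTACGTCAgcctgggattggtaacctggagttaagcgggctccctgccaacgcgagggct
Jun, chr4:95052173-95052472, minus strand: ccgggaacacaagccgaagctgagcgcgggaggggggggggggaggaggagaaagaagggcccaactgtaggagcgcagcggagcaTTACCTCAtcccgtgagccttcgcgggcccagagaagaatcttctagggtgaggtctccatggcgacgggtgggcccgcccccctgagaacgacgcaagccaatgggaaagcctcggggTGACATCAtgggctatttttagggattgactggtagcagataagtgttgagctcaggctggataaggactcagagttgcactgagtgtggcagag
Fos, chr12:85473640-85473939, plus strand: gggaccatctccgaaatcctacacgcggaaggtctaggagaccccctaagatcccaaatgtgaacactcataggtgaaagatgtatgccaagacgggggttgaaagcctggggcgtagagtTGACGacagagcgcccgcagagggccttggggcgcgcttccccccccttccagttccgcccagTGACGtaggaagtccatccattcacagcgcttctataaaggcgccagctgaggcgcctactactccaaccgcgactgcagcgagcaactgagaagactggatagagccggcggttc

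The marked match began at base -239 of the Batf3 gene start and at -10 of the Atf3 gene start. In Jun the matches began at -164 and -45, and in Fos at -129 and -66. The promoter table held 8 of the 9 members, Maf being the other, and both strands were searched. TTCNNNGAA was found in 1 of the 8 (Batf3) and in 8.30% of all 32851 promoters of the same length. TTCNNNNGAA, the form with a spacer of 4 that STAT6 prefers, was found in 0 of the 8 and in 6.95% of all. TNACNTCA was found in 3 of the 8 (Atf3, Jun and Jund) against 16.4% of all, and TGACG, which can lie inside it, in 4 of the 8 (Atf3, Junb, Fos and Batf) against 20.8%. Matches to the classical AP-1 site TGANTCA (7.81% of all promoters), the full element TGACGTCA (1.79%) and the MAF core TGCTGA (19.5%) were found in 0 of the 8. The GC box GGGCGG was found in 6 of the 8 against 35.7% of all, the NF-kB site GGGNNNNTCC in 3 against 19.2%, and the E-box CACGTG in 1 (Batf3) against 7.15%. The Batf3 promoter was 75.7% G and C, more than 96.7% of all promoters, whose median was 52.7%. Several of these motifs were picked after the printed sequences had been read, and a match is a string of letters, not a site shown to be bound.

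In GRCm38, Batf3 (gene ID 381319) lies on chromosome 1 from 191098414 to 191108943 and Atf3 (11910) on the same chromosome from 191170296 to 191183333. The gap between them is 61.4 kb and holds 4 annotated genes, of which 1, Fam71a, was listed, with 1 read in 1 of the 4 libraries. Fos (14281) lies on chromosome 12 from 85473890 to 85477274 and Batf (53314) from 85686720 to 85709087, 209 kb away, with 4 genes between them. Of those 4, only Jdp2, the bZIP gene for a JUN dimerization partner, was listed. Jun (16476) lies on chromosome 4 from 95049036 to 95052222 and Fosl2 (14284) on chromosome 5 from 32136472 to 32157840. Chromosome 8 holds Jund (16478) from 70697739 to 70700616, Junb (16477) from 84976909 to 84978748 and Maf (17132) from 115703253 to 115706894. No other RefSeq gene overlaps any member (0 overlaps), and the use of strand in counting is not stated.

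The libraries held 11026033 to 11250099 expected reads. Trim24 was listed at 2.55 and 1.48 FPKM (fragments scaled to transcript length and library size) in the wild-type untreated and IL-4 libraries and at 0.06 and 0.14 FPKM in the Trim24-deficient ones. A gene was called where a two-sided Fisher's exact test on its reads gave a Benjamini-Hochberg adjusted p under 0.05 and its FPKM differed by more than 1.5-fold. Given IL-4, the wild-type library had 766 genes higher and 1228 lower than the untreated one, or 814 and 813 after removal of a trend over transcript length. With IL-4 the Trim24-deficient library had 475 genes higher and 119 lower than the wild-type, or 215 and 103 after that removal. The log2 IL-4 ratio of the wild-type ran with transcript length at Spearman's rho of -0.37 over 10443 genes, and the genotype ratio under IL-4 at 0.52. The genes share libraries and these coefficients are descriptions.

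Summed by list, macrophage markers far exceeded markers of other cells, but Lyz2 and Cd68 carried most of that sum. In the untreated wild-type, Dcn (14.4 FPKM), Col1a1 (10.9) and Col1a2 (10.5) exceeded the macrophage markers Fcgr1 (6.59), Gata6 (1.52) and Timd4 (0.50). The other macrophage markers stood above them. The 10 macrophage markers summed to 14908 and 14771 FPKM in wild-type and to 8956 and 8322 FPKM in Trim24-deficient cells without and with IL-4, all 10 with reads. Most of that gap was Lyz2, the locus into which LysM-Cre is inserted, at 11289, 10811, 5193 and 4761 FPKM in the same order. With IL-4, Csf1r was called higher and Cd14, a monocyte receptor, lower in both genotypes. The 8 dendritic cell markers, relevant because Batf3 is best known from dendritic cells, summed to 2.77 to 2.91 FPKM. Ccr7 made up most of that (1.56 to 1.93 FPKM). Zbtb46 (0.37 to 0.58), Xcr1 (0.25 to 0.33), Flt3 and Cd209a also had reads in every library. Siglech was at 0 in 3 libraries and Clec9a at 0 in both IL-4 libraries. The 8 T cell markers summed to 7.42, 3.27, 8.88 and 3.77 FPKM in the same order, of which Cd28 made up 5.24, 1.49, 5.85 and 1.85, with Trac at 0 in every library. The 6 B cell markers summed to 4.23 to 6.52 FPKM and the 6 neutrophil markers to 7.58 to 11.3. The 5 eosinophil markers summed to 1.06 to 2.04 FPKM and the 5 mast cell markers to 3.63 to 9.12. Ighm, Ly6g and Epx were at 0 throughout, but Cd79a (1.17 to 2.97 FPKM), S100a8 (5.15 to 8.76) and Siglecf (0.95 to 2.04) had reads in every library. Unlisted genes were also set to 0, and whether the authors' reference held Trac, Ighm, Ly6g and Epx was not tested. The 8 mesothelial or fibroblast markers summed to 44.4, 38.5, 23.1 and 42.4 FPKM. Of these 8, the Trim24-deficient library had 5 called lower than the wild-type without IL-4, and 2 lower (Dcn and Wt1, lower in both treatments) and 2 higher (Col1a1 and Msln) with it. IL-4 itself left 2 of the 8 called lower in wild-type and 3 called higher in Trim24-deficient cells. The part of these other cells and of Lyz2 in the values of the 9 members was not tested. In bulk RNA, fewer cells of a type and less RNA per cell cannot be told apart.

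**Figure D1:**
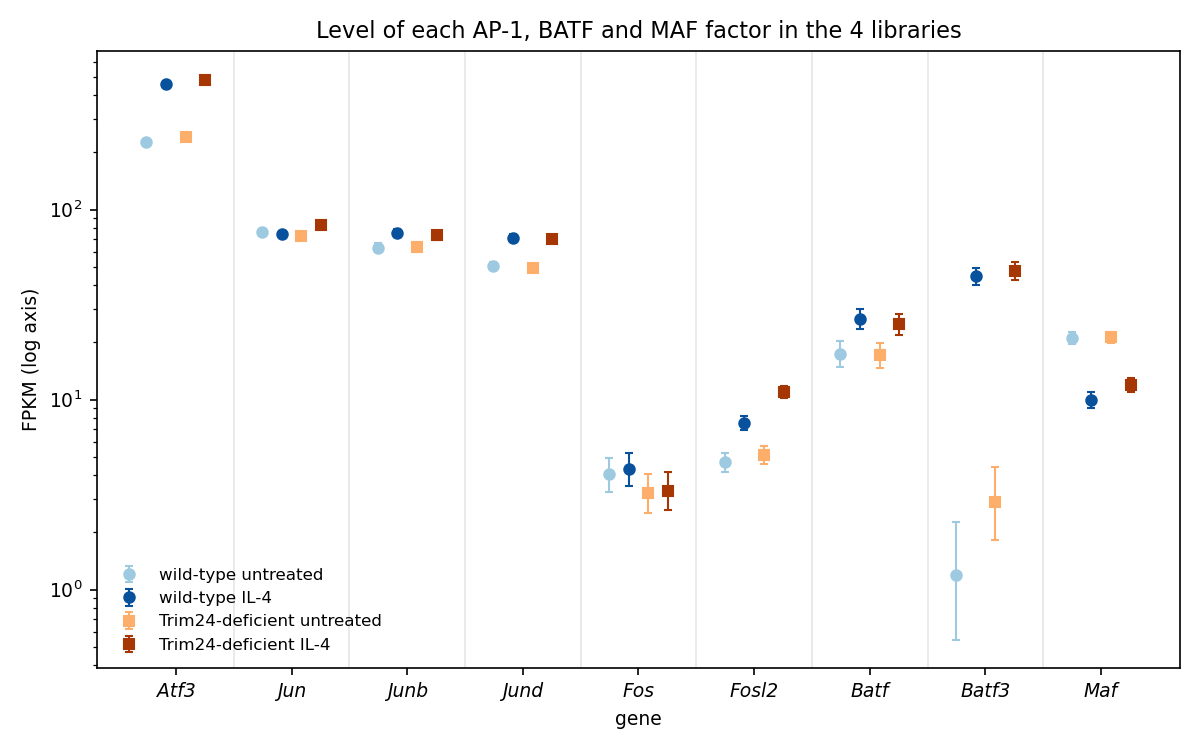
FPKM (log axis) of the 9 genes in the 4 libraries, 1 library a group, with points for deposited values and bars for 95% counting intervals. Atf3 sits highest in every library, and Batf3 moves from 1.19 and 2.90 FPKM without IL-4 to 44.6 and 47.5 FPKM with it.

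Before IL-4, Atf3 stood far above the rest, the 3 JUN genes followed, and the FOS genes and Batf3 were low. In the untreated wild-type the order was Atf3 (228 FPKM), Jun (76.2), Junb (63.0), Jund (50.7), Maf (21.1), Batf (17.4), Fosl2 (4.69), Fos (4.04) and Batf3 (1.19). FPKM is scaled to length, so these levels can be set side by side roughly. Ratios between libraries still ran with transcript length, and the counting intervals do not cover biases between genes. The 95% counting intervals of Maf and Batf overlapped, as did those of Fosl2 and Fos, while all other neighbours in the order were apart. Untreated Trim24-deficient macrophages gave the same order, and there the overlapping neighbours were Maf (21.2) with Batf (17.2) and Fos (3.23) with Batf3 (2.90). Atf3 exceeded 98.1% and 98.2% of the genes listed in these libraries, and Batf3 30.7% and 41.2%.

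After IL-4 the order was no longer the same. Batf3 moved from the ninth to the fifth place in both genotypes, above Batf, and Maf moved from the fifth to the seventh. In wild-type cells the JUN genes drew level: Junb (75.6 FPKM), Jun (74.6) and Jund (71.0) overlapped in their counting intervals. In the Trim24-deficient cells Jun (83.1) stayed above Junb (73.2) and Jund (69.9), of which only the last pair overlapped. Maf (11.9) and Fosl2 (11.01) overlapped as well in these cells.

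To ask how IL-4 changed these factors, the treated and untreated libraries were compared within each genotype. In wild-type cells, Batf3, Atf3, Fosl2 and Batf were called higher and Maf lower, 4 and 1 of 9, where 4.91% of the 15593 genes tested were called higher and 7.88% lower. In the Trim24-deficient cells Batf3, Atf3 and Fosl2 were called higher and Maf lower, 3 and 1 of 9, where 5.29% of the 15738 genes tested were called higher and 4.03% lower. The median log2 ratio of the 9 was 0.49 in wild-type cells and 0.50 in the Trim24-deficient cells, against -0.03 and 0.0 over all genes tested. The members share 4 libraries and do not count as replicates. They were chosen with earlier results of these data known. Their counts and median beside those of all genes are therefore a description and not a test.

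**Figure D2:**
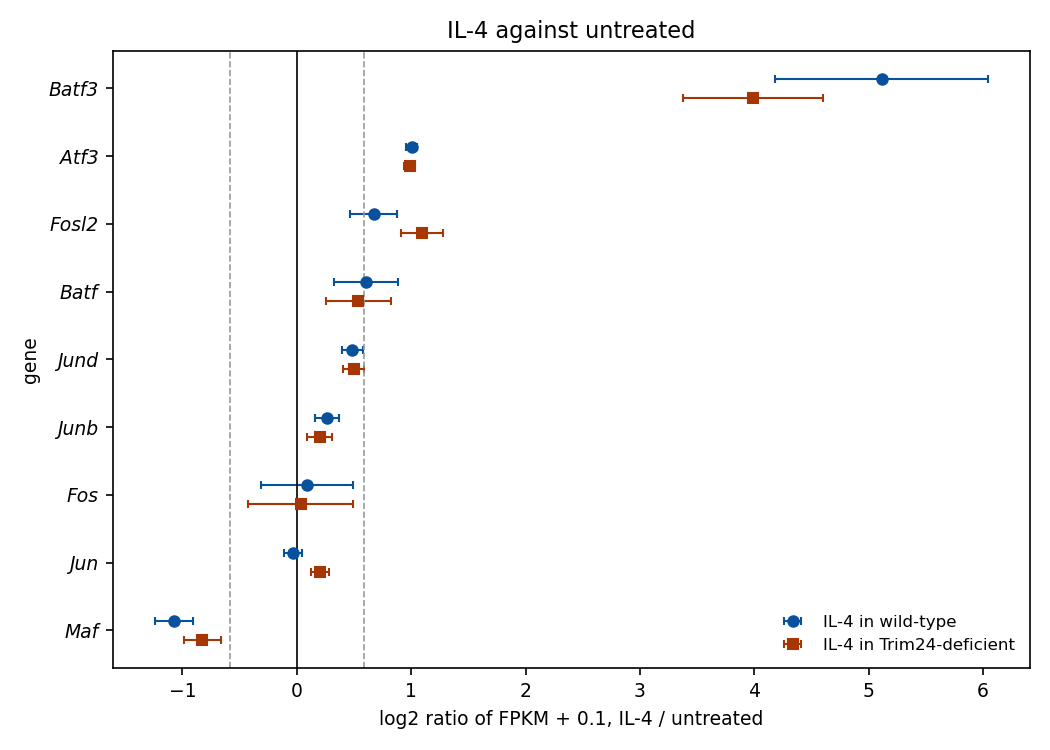
Log2 ratio of FPKM + 0.1, IL-4 over untreated, for the 9 genes in the wild-type (circles) and Trim24-deficient (squares) macrophages, with bars for 95% counting intervals and dashed lines at 1.5-fold. Batf3 lies at 5.11 and 3.99, Atf3 at 1.0 and 0.99, and Maf alone lies below the lower line, at -1.07 and -0.83.

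Batf3, whose protein is required for cross-presenting dendritic cells, showed the largest ratio of the 9 in both genotypes. It was listed at 1.19 FPKM (9 reads) in the untreated wild-type, 44.6 (345 reads) in wild-type cells given IL-4, 2.90 (22 reads) in the untreated Trim24-deficient and 47.5 (360 reads) in the Trim24-deficient library given IL-4. Both IL-4 libraries were thus far above both untreated libraries. The log2 ratio was 5.11 (34.6-fold; 95% counting interval of the log2 ratio 4.18 to 6.04; Fisher's exact test, adjusted p = 1.1e-86) in wild-type cells and 3.99 (15.9-fold; 3.37 to 4.60; adjusted p = 2.4e-78) in the Trim24-deficient cells. It was also the member that stayed called under an assumed biological coefficient of variation (BCV) of 0.4, with adjusted p = 0.00074 and 0.023 in edgeR's exact test. Low reads without IL-4 make the sizes uncertain: 9 and 22 reads gave 95% counting intervals of 0.54 to 2.26 and 1.82 to 4.39 FPKM.

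Batf, the founding member of this family and a partner of JUN in T and B cells, moved less. It stood at 17.4 FPKM (170 reads) and 26.6 FPKM (264 reads) in wild-type cells without and with IL-4, and at 17.2 (167 reads) and 25.0 (243 reads) in the Trim24-deficient cells. Both IL-4 libraries were above both untreated ones, but the ratios lay on either side of the threshold. In wild-type cells Batf rose 1.52-fold (log2 ratio 0.60, interval 0.33 to 0.88; Fisher's exact test, adjusted p = 1e-04), and in the Trim24-deficient cells its ratio of 1.45 (log2 0.54, interval 0.25 to 0.82; adjusted p = 0.0011) fell short of 1.5-fold. The call in wild-type cells was lost with a pseudocount of 1 (log2 0.58) and with the length trend removed (0.46).

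The summed BATF family, with Batf2, went from 20.1 to 73.2 FPKM in wild-type cells and from 21.5 to 74.6 FPKM in the Trim24-deficient cells, 3.64 and 3.48 times the untreated sum. Most of it was Batf without IL-4 (86.8% and 80.0%) and Batf3 with IL-4 (60.9% and 63.6%). Batf2 itself stood between 1.40 and 2.17 FPKM and was not called.

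BATF factors bind DNA with IRF4 or IRF8. Irf4 was listed at 0.57 FPKM (30 reads) and 15.4 (820 reads) in wild-type cells without and with IL-4, and at 0.84 (44 reads) and 22.8 (1186 reads) in the Trim24-deficient cells. It rose with log2 ratios of 4.53 and 4.60 (Fisher's exact test, adjusted p = 8.6e-196 and 2e-287). Irf8 stood at 68.8 and 52.3 FPKM in wild-type cells and at 72.8 and 56.6 in the Trim24-deficient cells, with log2 ratios of -0.39 and -0.36 that fell short of 1.5-fold. With IL-4 the FPKM of Batf3 was 2.89 and 2.09 times that of Irf4.

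Atf3, a stress-induced bZIP factor that restrains inflammatory genes, was the most abundant member and rose in both genotypes. It was listed at 228 FPKM (4981 reads) in the untreated wild-type, 457 (10192 reads) with IL-4, 241 (5267 reads) in the untreated Trim24-deficient cells and 479 (10441 reads) with IL-4. The untreated libraries were close to each other, as were the IL-4 libraries. The ratios were 2.01-fold and 1.98-fold (log2 1.0, interval 0.96 to 1.05, and 0.99, interval 0.94 to 1.04; Fisher's exact test, adjusted p listed as 0, below the smallest number the software holds). Both calls were lost with an assumed BCV of 0.2 (edgeR's exact test, adjusted p = 0.32 and 0.46), and that in the Trim24-deficient cells with a fold of 2. Atf3 made up 48.9% and 50.7% of the summed FPKM of the 9 members without IL-4 and 59.3% and 59.6% with it. Of the 8 heat shock genes, which mark cell stress, 2 were called higher in wild-type cells (Hsph1 and Hspd1) and 0 lower. In the Trim24-deficient cells 2 were called higher (Hsph1 and Bag3) and 0 lower. The median log2 ratio of the 8 was 0.40 and 0.39 in the same order. Hspa1a, Hspa1b and Dnajb1 were called in neither. Their log2 ratios were -0.47, 0.34 and -0.04 in wild-type cells and 0.62, -0.26 and -0.11 in the Trim24-deficient cells. Hsph1, a heat shock chaperone, stood at 18.0 and 34.6 FPKM in wild-type cells and at 19.6 and 38.4 in the Trim24-deficient cells, and whether it has a part in the Atf3 values was not tested.

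Jun, Junb and Jund, the obligate partners of most AP-1 dimers, were high in every library and were called in neither genotype. Jun was listed at 76.2 FPKM (2698 reads) and 74.6 (2692 reads) in wild-type cells without and with IL-4, and at 72.2 (2553 reads) and 83.1 (2939 reads) in the Trim24-deficient cells. Its ratio was 0.98 in wild-type cells (log2 interval -0.11 to 0.05) and 1.15 in the Trim24-deficient cells (log2 interval 0.13 to 0.28). Those intervals do not overlap, although neither reaches 1.5-fold.

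Junb stood at 63.0 FPKM (1277 reads) and 75.6 (1563 reads) in wild-type cells, and at 63.7 (1290 reads) and 73.2 (1481 reads) in the Trim24-deficient cells. Both IL-4 values were above both untreated values, by 1.20 and 1.15 times. Jund stood at 50.7 FPKM (1628 reads) and 71.0 (2326 reads) in wild-type cells, and at 49.4 (1586 reads) and 69.9 (2240 reads) in the Trim24-deficient cells. Its ratios of 1.40 and 1.41 (log2 0.49, interval 0.39 to 0.58, and 0.50, interval 0.41 to 0.59) had adjusted p = 1.5e-24 and 8.1e-25 by Fisher's exact test but missed the fold threshold.

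Summed over the 3 genes, the JUN family went from 190 to 221 FPKM in wild-type cells and from 185 to 226 in the Trim24-deficient cells, 1.16 and 1.22 times. The share of Jund in that sum went from 26.7% to 32.1% in wild-type cells and from 26.7% to 30.9% in the Trim24-deficient cells.

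The FOS genes were scarce beside them. Fos, the classical immediate-early partner of JUN, was listed at 4.04 FPKM (94 reads) and 4.30 (102 reads) in wild-type cells and at 3.23 (75 reads) and 3.31 (77 reads) in the Trim24-deficient cells. At this depth, and at 6 h, the only time after IL-4 in these libraries, no difference with IL-4 was detectable. The log2 intervals were -0.32 to 0.49 and -0.42 to 0.49, and other times were not tested. Fosl2, the FOS-related gene for FRA2, was listed at 4.69 FPKM (308 reads) and 7.53 (505 reads) in wild-type cells and at 5.10 (335 reads) and 11.01 (723 reads) in the Trim24-deficient cells. It rose in both: 1.59-fold in wild-type cells (log2 0.67, interval 0.47 to 0.88; Fisher's exact test, adjusted p = 2.9e-10) and 2.14-fold in the Trim24-deficient cells (log2 1.10, interval 0.91 to 1.28; adjusted p = 5.2e-32). A pseudocount of 1 ended the call in wild-type cells, at a log2 ratio of 0.58, and a BCV of 0.2 ended both (edgeR's exact test, adjusted p = 0.92 and 0.30).

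Fosb and Fosl1, the other FOS genes, stood at 0.05 FPKM or less and at 0.27 to 0.73 FPKM. The summed JUN family was 20.6 and 21.6 times the summed FOS family without IL-4, and 17.6 and 15.4 times with it. With IL-4, Fosl2 was 1.75 times Fos in wild-type cells and 3.33 times Fos in the Trim24-deficient cells. These 2 multiples are not corrected for the trend over transcript length. With that trend removed, the log2 ratio of Trim24-deficient to wild-type under IL-4 went from 0.54 to 0.28 for Fosl2. That of Fos went from -0.37, with a counting interval that includes 0, to -0.31.

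**Figure D3:**
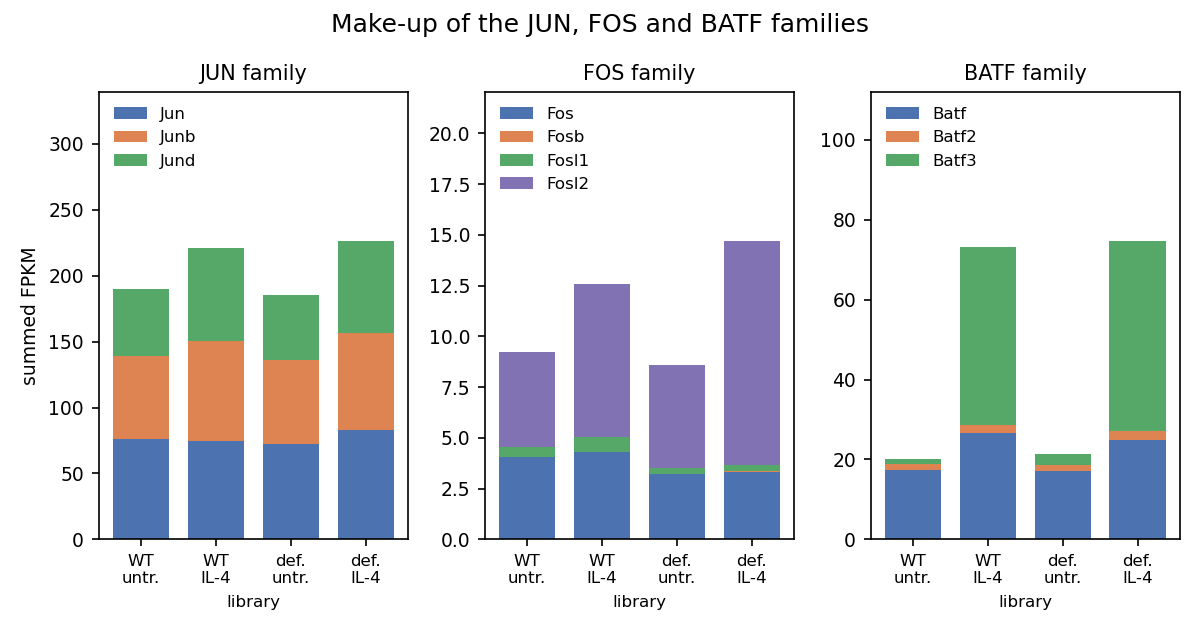
Summed FPKM of the JUN, FOS and BATF families in each library (bars, each panel with its own axis from 0), split by gene (WT, wild-type; def., Trim24-deficient; untr., untreated). The JUN panel reaches 226 FPKM and the FOS panel 14.7, and Batf3 takes most of the BATF bars in the IL-4 libraries.

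Maf was the member that fell. It was listed at 21.1 FPKM (854 reads) in the untreated wild-type, 9.96 (412 reads) in wild-type cells given IL-4, 21.2 (859.8 reads) in the untreated Trim24-deficient cells and 11.9 (483 reads) in those given IL-4. The untreated values were nearly equal and both IL-4 values were lower. Its log2 ratio was -1.07 in wild-type cells (interval -1.24 to -0.90, 2.11-fold lower; Fisher's exact test, adjusted p = 2e-36) and -0.83 in the Trim24-deficient cells (interval -0.99 to -0.67, 1.77-fold lower; adjusted p = 1.4e-23). Both calls were lost with an assumed BCV of 0.2 (edgeR's exact test, adjusted p = 0.35 and 0.83), and that in the Trim24-deficient cells with a fold of 2. The expected counts of Maf were not whole, so RSEM assigned part of its reads by its model.

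Of 5 other MAF genes examined, 2 were called higher in wild-type cells (Mafa and Maff), 1 in the Trim24-deficient cells (Maff) and 0 lower in either. Maff, a small MAF without an activation domain, stood at 2.70 and 6.00 FPKM in wild-type cells and at 2.28 and 5.79 in the Trim24-deficient cells, with log2 ratios of 1.12 and 1.31. Mafg and Mafk, the more abundant small MAF genes, lay between 13.9 and 18.2 FPKM in every library. Mafa rested on 2, 16, 4 and 13 reads.

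Genes that have been tied to MAF in macrophages were called in both directions. Of 8, Csf1r, the receptor for macrophage colony-stimulating factor, was called higher and F13a1, a coagulation factor subunit, lower in both genotypes, and the other 6 were not called. Csf1r stood at 145 and 270 FPKM in wild-type cells and at 135 and 285 in the Trim24-deficient cells. F13a1 stood at 2.29 and 1.34 FPKM in wild-type cells and at 5.31 and 3.25 in the Trim24-deficient cells. It was the 1 gene of the 8 called between genotypes, higher in the Trim24-deficient library without IL-4 (log2 1.18; Fisher's exact test, adjusted p = 3.9e-11) and in the presence of IL-4 (log2 1.22; adjusted p = 7.3e-08). The complement gene C1qa had log2 IL-4 ratios of 0.31 and 0.02, and C1qb of 0.13 and 0.09.

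All 4 libraries were also fitted together. An additive fit of genotype and treatment in edgeR (quasi-likelihood test, 1 residual degree of freedom) called 6 of the 9 for IL-4 on an adjusted p under 0.05 alone, with no limit on the fold, 5 higher and 1 lower, where 12% of 11791 genes were called higher and 13.3% lower. The log2 effects were 4.50 for Batf3 (edgeR adjusted p = 2.2e-09), 1.01 for Atf3 (7.7e-07), 0.91 for Fosl2 (4.6e-05), 0.58 for Batf (0.0033), 0.50 for Jund (0.00062) and -0.94 for Maf (1e-05). Junb had 0.24 (edgeR adjusted p = 0.065), Jun 0.10 (0.47) and Fos 0.08 (0.80). Jund and Batf were called here with effects under 1.5-fold. This fit assumes the same IL-4 effect in both genotypes and takes its error from how far the libraries depart from that. The error of each gene is drawn towards a trend over all genes, so the p-values do not rest on that gene's own departure alone. In DESeq2 the same model left Batf uncalled (adjusted p = 0.21).

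Loss of Trim24 was then compared within each treatment. None of the 9 was called without IL-4 (0 of 9, with 3 at an unadjusted p under 0.05), where 0.839% of 15623 genes were called higher and 0.742% lower by the Fisher's exact test rule. None was called with IL-4 either (0 of 9), where 3.05% of 15573 genes were called higher and 0.764% lower. The 4 at an unadjusted p under 0.05 also had an adjusted p under 0.05 and missed only the 1.5-fold limit. They were Fosl2 (Fisher's exact test, adjusted p = 1.1e-09), Jun (0.00055), Atf3 (0.01) and Maf (0.043). By edgeR's exact test with an assumed BCV of 0.2 or 0.4, 0 of the 9 were called in either treatment. Over all genes these settings called only 15 and 7 without IL-4 and 21 and 11 with it, so 0 of 9 says little. The additive edgeR fit called 0 of the 9 for genotype (1, Fosl2, at an unadjusted p under 0.05). Over all genes it called 1.29% higher and 0.373% lower. DESeq2 called 0 of the 9 as well, and only 65 genes in all.

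**Figure D4:**
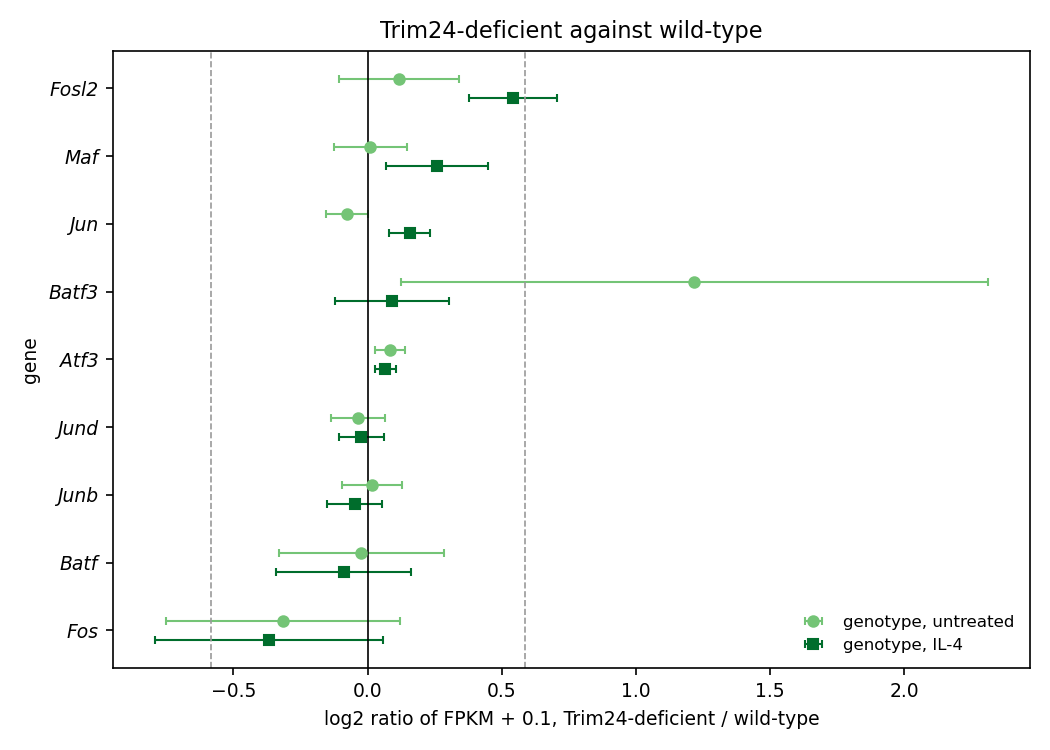
Log2 ratio of FPKM + 0.1, Trim24-deficient over wild-type, for the 9 genes without IL-4 (circles) and with it (squares), with bars for 95% counting intervals and dashed lines at 1.5-fold. Every point lies between the dashed lines except untreated Batf3, at 1.22 with an interval of 0.12 to 2.31.

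The ratio of Trim24-deficient to wild-type lay between 0.95 and 1.12 in both treatments for Atf3, Jun, Junb and Jund. Their log2 counting intervals ran from -0.16 (Jun without IL-4) to 0.23 (Jun with IL-4). Those of Atf3 lay above 0 in both treatments (0.03 to 0.14 without IL-4 and 0.03 to 0.10 with it). That of Jun lay just below 0 without IL-4 and above 0 with it (0.08 to 0.23), and those of Junb and Jund included 0. Batf3 without IL-4 had a ratio of 2.33, on 22 against 9 reads (log2 1.22, interval 0.12 to 2.31; Fisher's exact test, adjusted p = 0.18). Under IL-4 its ratio was 1.07 (log2 0.09, interval -0.12 to 0.30). Fos was lower in the Trim24-deficient library of both treatments, at log2 ratios of -0.31 (interval -0.75 to 0.12) and -0.37 (interval -0.79 to 0.06), and both intervals include 0. Maf had a ratio of 1.20 with IL-4 (Fisher's exact test, adjusted p = 0.043) and of 1.01 without. With the trend over transcript length removed, its log2 ratio with IL-4 went from 0.26 to 0.19. The adjusted p was then no longer under 0.05.

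Fosl2 with IL-4 came closest to a call. Its ratio of Trim24-deficient to wild-type was 1.09 without IL-4 and 1.46 with it (log2 0.54, interval 0.38 to 0.71; Fisher's exact test, adjusted p = 1.1e-09), just under 1.5-fold. Fosl2 has the longest transcript of the 9, at 5886 bases, and the genotype ratio under IL-4 ran upward with length over all genes. With that trend removed its log2 ratio was 0.28. Batf3 has the shortest transcript, at 712 bases, and its log2 ratio with IL-4 went from 0.09 to 0.28 under the same removal. The cause of the length trend was not tested.

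Whether the IL-4 response itself differed between the genotypes was tested as a difference of the 2 log2 ratios. None of the 9 was called (0 of 9, with 4 at an unadjusted p under 0.05), where 2.45% of the 13381 genes with at least 10 reads were called. The largest difference, Trim24-deficient minus wild-type, was -1.15 for Batf3 (interval -2.27 to -0.04; Wald test on log counts, adjusted p = 0.22) and rests on its 9 and 22 untreated reads. Fosl2 differed by 0.42 (interval 0.15 to 0.70; Wald test, adjusted p = 0.029) and Jun by 0.23 (interval 0.13 to 0.34; adjusted p = 0.00056), both under the 1.5-fold limit. Maf differed by 0.25 (interval 0.02 to 0.48; adjusted p = 0.20), and Batf, Junb, Jund, Fos and Atf3 by -0.07 to 0.01. With the length trend removed the Fosl2 difference was 0.20 (adjusted p = 0.57).

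The wider bZIP family was examined to place these values. Of 6 other AP-1 and BATF genes (Fosb, Fosl1, Batf2, Jdp2, Atf2 and Atf7), 0 were called with IL-4 in either genotype. Jdp2, between Fos and Batf on chromosome 12, stood at 13.9 and 16.9 FPKM in wild-type cells and at 12.5 and 18.3 in the Trim24-deficient cells. Of 27 more distant bZIP genes, 7 were called higher and 1 lower in each genotype, at a median log2 ratio of 0.30 in wild-type cells and 0.16 in the Trim24-deficient cells.

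Among those called in both genotypes, Atf4, a central factor of the amino acid response, stood at 164 and 273 FPKM in wild-type cells and at 158 and 252 in the Trim24-deficient cells, with log2 ratios of 0.74 and 0.67. Atf5 had log2 ratios of 1.02 and 1.08, Cebpb, a macrophage differentiation factor, 0.79 and 0.73, and Xbp1, a factor of the unfolded protein response, 0.77 and 0.69. Atf6 and Atf6b, also of that response, were not called, with log2 ratios of -0.44 and -0.22 for Atf6 and of -0.01 in both genotypes for Atf6b. Named after their values were seen, Nfil3 rose from 6.10 to 33.0 FPKM and from 5.39 to 36.5, Ddit3 from 46.7 to 102.6 and from 41.7 to 85.6, and Dbp fell from 6.29 to 3.72 and from 7.05 to 3.58. None of the 27 was called between genotypes in either treatment (0 of 27). Over all genes 0.839% were called higher and 0.742% lower without IL-4, and 3.05% and 0.764% with it, so 0 of 27 lies near these shares. The same shares apply to the genotype counts of the other gene lists. For the IL-4 counts of all these lists, the shares over all genes were 4.91% higher and 7.88% lower in wild-type cells. In the Trim24-deficient cells those shares were 5.29% and 4.03%.

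**Figure D5:**
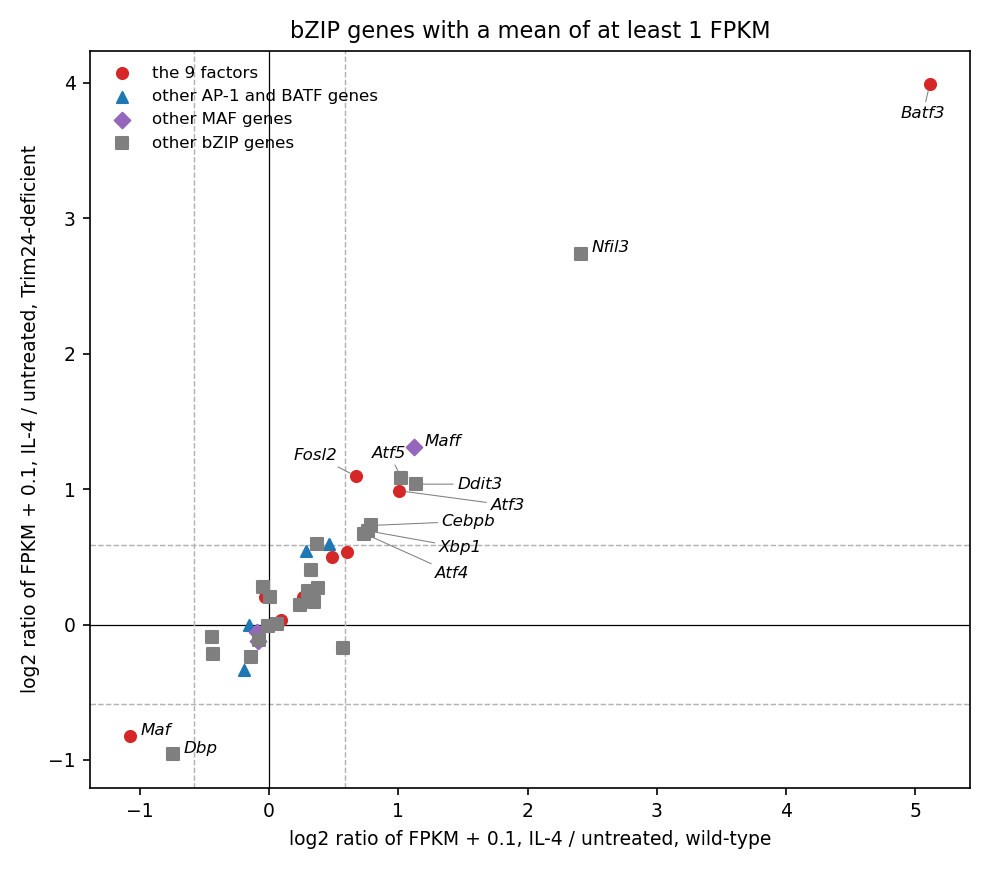
Log2 IL-4 ratio in wild-type cells (horizontal) against the Trim24-deficient macrophages (vertical) for 38 bZIP genes that average 1 FPKM or more, with dashed lines at 1.5-fold and names on the 12 genes called in one direction in both genotypes. Batf3 lies at the upper right, at 5.11 and 3.99, and Maf and Dbp are the named genes at the lower left.

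AP-1 activity is set by MAP kinases and by the phosphatases that switch them off. Of 21 genes of MAP kinase cascades and their nuclear targets, 1 was called higher and 3 lower with IL-4 in wild-type cells. In the Trim24-deficient cells the counts were 1 and 2. Such small counts lie near the shares over all genes given above. Map2k6, a kinase of the p38 branch, stood at 0.88 and 2.50 FPKM in wild-type cells and at 0.92 and 1.93 in the Trim24-deficient cells. Map3k5, a stress-activated kinase that feeds JNK and p38, stood at 2.66 and 1.65 FPKM and at 2.76 and 1.63. The JNK genes Mapk8 and Mapk9, whose products phosphorylate JUN, were not called, with log2 ratios between -0.07 and 0.13. After removal of the length trend 1 gene, and not 3, was lower in wild-type cells. Elk4, an ETS factor that binds with SRF, was the 1 gene of the 21 called between genotypes, at 1.92 and 3.60 FPKM in the wild-type and Trim24-deficient IL-4 libraries (log2 0.87).

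Of 10 dual-specificity phosphatases, 2 were called higher and 3 lower in wild-type cells, and 2 and 2 in the Trim24-deficient cells. Dusp4 rose with log2 ratios of 1.35 and 2.12 and Dusp2 with 0.78 and 0.80, whereas Dusp1, the best known of the immediate-early phosphatases, fell by 0.63 and 0.74 on the log2 scale. After removal of the length trend 1 was lower in wild-type cells and 3 in the Trim24-deficient cells. Dusp4 was also called lower in the untreated Trim24-deficient library, at 1.83 against 3.76 FPKM.

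Immediate-early genes are induced alongside Fos by growth factors and stress. Of 17 such genes other than the members, IL-4 left 5 called higher and 0 lower in wild-type cells, and 6 higher and 2 lower in the Trim24-deficient cells, at median log2 ratios of 0.27 and 0.0. Egr2, an early growth response factor, stood at 29.4 and 95.8 FPKM in wild-type cells and at 32.9 and 96.3 in the Trim24-deficient cells. Ier3 rose with log2 ratios of 3.55 and 3.36, Klf4, a Kruppel-like factor of M2 macrophages, with 1.39 in both, and Myc with 1.57 and 1.96. Ier2 and Klf2 were not called and had log2 ratios of -0.45 and -0.19 in wild-type cells. Myc and Socs3 were the 2 called between genotypes, both lower in the untreated Trim24-deficient library (log2 -0.74 and -0.80).

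Genes with AP-1 sites in their control regions moved both ways. Of 15, IL-4 left 5 called higher and 1 lower in wild-type cells, and 5 higher and 2 lower in the Trim24-deficient cells. Mmp13, a collagenase, stood at 0.51 and 15.0 FPKM in wild-type cells and at 0.34 and 9.46 in the Trim24-deficient cells. Cd44, a hyaluronan receptor, rose with log2 ratios of 1.02 and 0.99, Ccl2, a monocyte chemokine, with 2.29 and 2.07, and Timp1, a metalloproteinase inhibitor, with 2.13 and 2.51. Tnf, named after its value was seen, fell from 5.45 to 2.39 FPKM and from 4.57 to 1.14. Between genotypes under IL-4, 3 of the 15 were called lower in the Trim24-deficient library (Mmp13, Ccl2 and Tnf), and 2 after removal of the length trend. Without IL-4 1 was called lower, Ptgs2, at 0.10 against 0.42 FPKM.

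The genes whose pattern over the 4 libraries was most like a member were sought among 7449 genes averaging 5 FPKM or more, by the Euclidean distance of mean-centred log2 profiles. This was done for the 4 members with a range of at least 1 on the log2 scale. Nearest to Batf3 were Serpina3h (distance 0.50), Plekhf1 (0.50) and Irf4 (0.61). Serpina3h stood at 0.64, 17.6, 1.03 and 18.3 FPKM in the wild-type untreated, wild-type IL-4, Trim24-deficient untreated and Trim24-deficient IL-4 libraries, and Plekhf1 at 0.58, 17.3, 0.88 and 20.5.

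Nearest to Atf3 were Pla2g15 (0.04), Dse (0.05) and Bhlhe40 (0.07), the last a basic helix-loop-helix factor at 101, 215, 106 and 220.2 FPKM in the same order. Nearest to Fosl2 were Klf9 (0.13), Ptprj (0.13) and Fzd7 (0.16), and nearest to Maf were Zfp36l2 (0.05), Rap2a (0.05) and Plxnb2 (0.05). Zfp36l2, which destabilizes mRNA, stood at 93.1, 43.4, 95.7 and 54.1 FPKM. With 4 values a profile, many genes lie close to a member by this measure, and Serpina3h belongs to a family of similar copies whose reads the counting may split.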

How the data were processed

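Total RNA of thioglycolate-elicited macrophages was sequenced on an Illumina HiSeq instrument in 4 libraries, 1 per group as labelled. Per the labels and the study's methods, the authors used Bowtie for alignment to GRCm38 (mm10) and RSEM for quantification, whose versions are not given in the sources used here. The deposited tables hold the expected count of each gene, which need not be whole and was rounded for tests, and the authors' FPKM value with 2 decimals, scaled by effective length and library total. Unlisted genes were set to 0. Of 16403 gene IDs, 16365 matched a symbol in RefSeq (GRCm38.p6) and 38 did not.

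Pairs of libraries were compared by two-sided Fisher's exact tests over all genes with a read, with Benjamini-Hochberg adjustment. Each ratio was taken after adding 0.1 to both FPKM values, on a log2 scale, which understates the change of a low gene. Intervals of log2 ratios and of their differences use counts plus 0.5, and those of FPKM use exact Poisson limits of the expected count. The difference of IL-4 responses was tested by a Wald test on log2 counts plus 0.5, for genes with at least 10 reads. An additive model was fitted in edgeR 4.0.16 (TMM, filterByExpr, quasi-likelihood test) and in DESeq2 1.42.0, with R 4.3.3, Python 3.11.15 and scipy 1.17.1. The scripts were tested on simulated data. A total of 11026033 to 11250099 reads per library makes 3 reads worth 0.27 CPM. Intervals cover counting error only, since without molecular identifiers reads need not be independent molecules.

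The members, the gene lists, the tests and the rule for named genes were chosen with earlier results of these data known. The rule names the members, Trim24, Irf4 and Irf8, up to 4 genes per list called in the same direction in both independent pairs (by mean FPKM), and the 3 nearest profiles of each member with a log2 range of at least 1. Alternatives were pseudocounts of 0.01 and 1, a minimum mean of 1 FPKM, TMM-scaled CPM, a fold of 2, removal of a lowess trend (fraction 0.3) over transcript length, an assumed BCV of 0.2 or 0.4, DESeq2, no filter, and upper-quartile scaling. An item of the gene lists is not reported here.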

Additional observations from a re-analysis of the deposited data

How the results depend on the processing

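No paired analysis was possible because each group holds 1 library and the labels carry no replicate numbers, and leaving a library out of a pair leaves no comparison. Counting error understates the spread between mice, which these libraries cannot measure. Of the 5 members called with IL-4 in the wild-type, 3 were called with a pseudocount of 1, 3 with a fold of 2, and 1 (Batf3, not Atf3, Fosl2, Batf or Maf) with an assumed BCV of 0.2 or 0.4. Of the 4 called in the Trim24-deficient cells, 2 were called with a fold of 2 and 1 (Batf3) with either BCV. All other alternatives kept the count of members within 1.5 times.

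Over all genes the counts moved more. IL-4 in the wild-type called 1994 genes, and 861 with a fold of 2, 260 with a BCV of 0.2 and 48 with a BCV of 0.4. IL-4 in the Trim24-deficient cells called 1466, and 711, 272 and 33 under the same settings. Genotype without IL-4 called 247, and 156 with a pseudocount of 1, 128 with a fold of 2, and 15 and 7 with the BCVs. Genotype with IL-4 called 594, and 322 with a pseudocount of 1, 171 with a fold of 2, 318 with the length trend removed, and 21 and 11 with the BCVs. The difference of IL-4 responses called 328 (280 higher in the Trim24-deficient cells, 48 lower), and 98 (70 and 28) with the length trend removed and 106 with a fold of 2. The additive edgeR fit called 2987 genes for IL-4, 1229 by DESeq2 and 1675 without a filter. For genotype it called 196 (152 higher, 44 lower), 65 (57 and 8) by DESeq2, 624 (399 and 225) with the length trend removed, 24 without a filter and 494 (331 and 163) with upper-quartile scaling. The cause of these moves was not tested beyond the construction of each setting.

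Of 342 values of single members under the alternatives, 314 kept their direction and side of the threshold, 18 lost a call, 1 gained one and 9 changed sign. The sign changed for Jun with IL-4 in the wild-type (log2 0.0058, TMM-scaled CPM) and, with the length trend removed, for Batf between genotypes without IL-4 (0.0195), with IL-4 (0.0836) and in the additive fit (0.0488), for Junb between genotypes with IL-4 (0.0259) and in the additive fit (0.0345), and for the differences of Batf (0.0556), Jund (-0.0047) and Atf3 (0.0138). None of these 9 was a called value. Junb gained a call for IL-4 in the additive fit with the length trend removed (0.19, edgeR adjusted p = 0.036). Reads limit Batf3 without IL-4 and Fos throughout.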
